A study of Homo sapiens with 4 samples.

Results

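The genes described here are the receptor chains, Janus kinases, STAT factors and interferon regulatory factors (IRFs) that carry interferon signals: IFNAR1, IFNAR2, JAK1, TYK2, STAT2, STAT3, IRF1, IRF7 and IRF9. They were chosen by name, as 9 of the 47251 genes of the deposited gene table. All 9 averaged 1 FPKM or more and were among the 9873 genes tested. AGS is a cell line from a human gastric adenocarcinoma, and RNA from it was sequenced in 4 libraries to see how the profile of expression changes when MFAP2, a microfibril protein of the extracellular matrix, is silenced. The 2 sh-MFAP2 libraries came from AGS cells carrying 1 lentiviral short hairpin RNA against MFAP2, and the 2 control libraries from AGS cells carrying a scrambled shRNA (sh-control). All were grown in DMEM with 10% FBS, and the study describes stable lines selected after infection. With 1 hairpin, an effect of the hairpin itself and an effect of MFAP2 cannot be told apart. Nothing says that the 2 libraries of a group came from separate cultures, so the p-values measure the spread between these libraries, which may be technical.

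Type I interferons bind a receptor made of IFNAR1 and IFNAR2, whose cytoplasmic tails hold the kinases TYK2 and JAK1. The kinases phosphorylate STAT proteins, STAT2 among them, which join IRF9 in the complex ISGF3, and ISGF3 binds the interferon-stimulated response element (ISRE) of its target genes, IRF7 among them. Interferon gamma acts through another element, GAS, and induces IRF1. STAT3 shares JAK1 with this pathway but is best known as the factor that cytokines of the IL-6 family activate through the receptor chain gp130. In epithelial cells the pathway keeps a low tonic output that rises when viral RNA or interferon is sensed.

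The largest differences among the 9 genes were in IRF7 and IRF9, which were higher in sh-MFAP2 cells, and in STAT3, which was lower. None of the 9 passed the threshold used for a differentially expressed gene (DEG), which was p under 0.01 with an adjusted p under 0.05 in limma. Over all genes tested, 0.273% passed it (27 genes). At an unadjusted p under 0.05, 2 members were higher (IRF7, IRF9), against 3.89% of all genes tested, and 1 was lower (STAT3), against 8.41%. In 3 members both sh-MFAP2 libraries lay above both controls (TYK2, IRF7, IRF9), against 17.5% of all genes tested. STAT3 alone lay below both controls in both libraries, as did 31.4% of all genes tested. The groups overlapped in the other 5 members. The median log2 fold change of the members was -0.02, and that of all genes tested was -0.05. Without sh-MFAP2 replicate 1 the members' median was 0.16. With 2 libraries against 2, an exact permutation test of a gene cannot go below a two-sided p of 0.333. In bulk RNA, a change in every cell and a change in the share of cells that express a gene cannot be told apart.

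**Figure D1:**
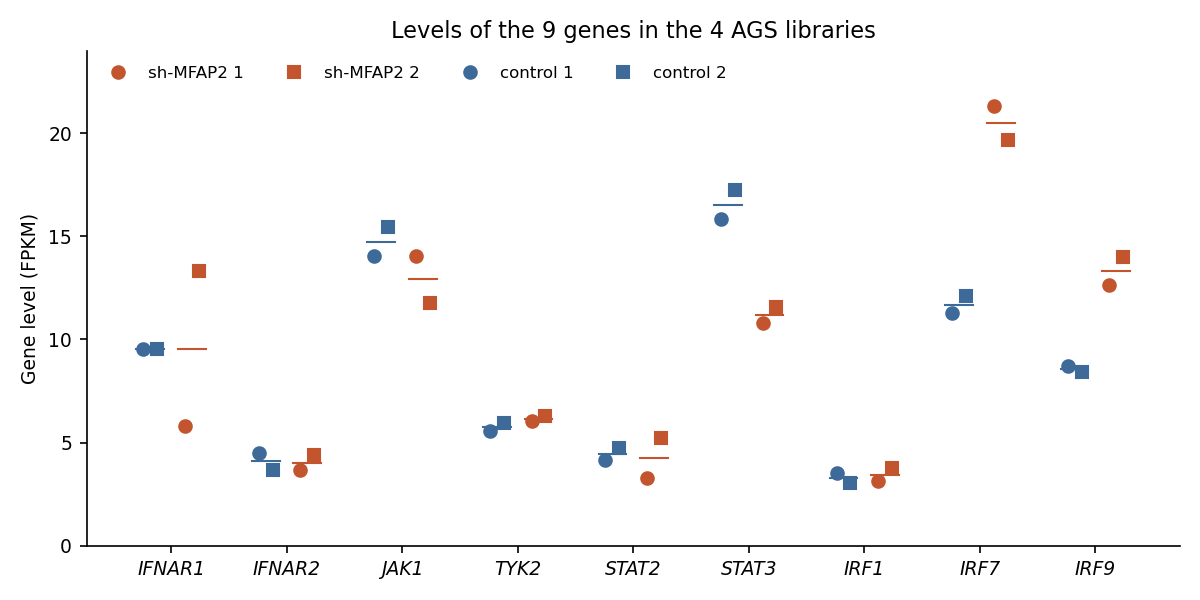
Gene level in FPKM (linear axis from 0) of the 9 genes, with each library as a point (control in blue, sh-MFAP2 in red, circles for replicate 1 and squares for replicate 2) and each group mean as a line. IRF7 and IRF9 lie higher and STAT3 lower in both sh-MFAP2 libraries than in both controls, whereas the 2 sh-MFAP2 libraries differ widely in IFNAR1.

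The expression levels are FPKM, in which fragments are divided by a length and by library depth. Levels of different genes are thus compared per length. Which length the authors used for a gene with several transcripts is not given, and it need not be that of its main transcript. The order of genes by level and the size of ratios between genes depend on that length. Transcript values are a separate deposited estimate and do not add up to the gene level. The share of a transcript is therefore its share of the summed transcript values of its gene, called sums of transcripts below. Fold changes are differences of log2(FPKM + 1), sh-MFAP2 minus control, with their standard error (SE) from limma, and every adjusted p is limma's after Benjamini-Hochberg adjustment over all genes tested. The depth of the libraries, inferred from the steps between low values, was about 54800000 to 75000000 reads. On that scale a member had between 1007 reads (IFNAR2 in sh-MFAP2 replicate 1) and 11410 reads (STAT3 in control replicate 2). MFAP2 was at 0 FPKM in each library with its hairpin and at 0.0116 and 0.0138 FPKM in the controls, or about 2.01 and 3.01 inferred reads. These values are at the limit of detection and did not allow a check of the labels. Of 8 epithelial markers, 7 were above 1 FPKM in every library, with a sum, mostly of keratins, of 1850 to 2070 FPKM. CLDN7 (26.0 and 34.2 against 46.1 and 48.2 FPKM in the controls) and CDH17 (25.3 and 36.1 against 36.7 and 43.1 FPKM) were lower in sh-MFAP2 cells without overlap, and no marker was higher without overlap. CLDN4 was not above 1 FPKM in every library, at 47.1 FPKM in sh-MFAP2 replicate 1 and at 0.0151 to 0.551 FPKM in the others. The 4 endothelial markers summed to at most 0.0380 FPKM.

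By the gene table, STAT3 had the highest level of the 9 genes in the control cells, followed by JAK1, IRF7, IFNAR1, IRF9 and TYK2. STAT2, IFNAR2 and IRF1 were the lowest. The ranges of neighbours in this order did not overlap, except those of STAT2 and IFNAR2. In sh-MFAP2 cells IRF7 came first and stood apart from the rest. IRF9 and JAK1, which followed, overlapped, and so did STAT3 with IFNAR1 and IFNAR1 with TYK2. STAT2, IFNAR2 and IRF1 were again the lowest, and each overlapped with its neighbour. The order depends on the table. In sums of transcripts, IRF9 lay above IRF7 and TYK2 lay above IFNAR1 in every library.

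IFNAR1, the chain that binds TYK2, lies on chromosome 21, bases 33324477 to 33359862 of the plus strand, as are all positions here in GENCODE 29 on GRCh38. Its level was 5.79 FPKM in sh-MFAP2 replicate 1, 13.3 FPKM in sh-MFAP2 replicate 2, and 9.55 and 9.54 FPKM in the controls. The controls were thus nearly equal, with 1 sh-MFAP2 library below them and the other above. The group means were the same, 9.55 and 9.55 FPKM (sh-MFAP2 and control), and the log2 fold change was -0.10 (SE 0.40, limma adjusted p = 0.928). The 2 sh-MFAP2 libraries differed by 1.08 on the log2 scale, and 7.78% of the genes tested had a difference between replicates at least as large. The direction rested on a library: the log2 fold change was 0.44 without sh-MFAP2 replicate 1 and -0.64 without sh-MFAP2 replicate 2. At the transcript level, 87.8% to 95.9% of IFNAR1 was assigned to the main transcript of 557 residues (ENST00000270139), which varied between libraries as the gene did. A short noncoding transcript held 11.2% in sh-MFAP2 replicate 1 and 4.10% in sh-MFAP2 replicate 2, and 9.59% and 8.97% in the controls.

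IFNAR2, the chain that binds JAK1, lies on the same chromosome from 33229901 to 33265675, also on the plus strand. Its level was 3.66 and 4.38 FPKM in sh-MFAP2 cells and 4.51 and 3.68 FPKM in the controls. The groups overlapped fully, and the log2 fold change of -0.02 (SE 0.15, adjusted p = 0.962) was smaller than the spread between replicates. Its sign turned when sh-MFAP2 replicate 1 (0.082) or control replicate 1 (0.097) was left out. IFNAR2 makes a long form that signals and a short form with another cytoplasmic tail, which does not transmit the signal fully. Transcripts of the short form of 331 residues held most of the summed transcript level, 76.1% and 75.7% in the sh-MFAP2 libraries and 71.3% and 65.9% in the controls. The long form of 515 residues held 18.3% and 14% in sh-MFAP2 cells and 22.0% and 15.3% in the controls. The share of the short form was higher in both sh-MFAP2 libraries, with no overlap, and that of the long form overlapped. The short form is here a sum of 2 transcripts, ENST00000382264 and ENST00000404220, and the share of each alone overlapped between the groups. In level, ENST00000382264, the larger of them, had a log2 fold change of 0.0022 (SE 0.30, limma adjusted p = 0.998 over all transcripts). A difference in shares was not tested. A readthrough gene that joins IFNAR2 to IL10RB (AP000295.1) was listed at 0 in every library, and the antisense transcript IL10RB-DT was at 0.325 and 0.400 FPKM in sh-MFAP2 cells and 0.168 and 0.133 FPKM in the controls.

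JAK1 lies on chromosome 1 (bases 64833229 to 64966504, minus strand). It was at 14.1 and 11.8 FPKM in sh-MFAP2 cells and at 14.1 and 15.4 FPKM in the controls, with sh-MFAP2 replicate 1 level with control replicate 1. Its log2 fold change was -0.18 (SE 0.14, adjusted p = 0.598). It was -0.30 without sh-MFAP2 replicate 1, -0.062 when sh-MFAP2 replicate 2 was left out and -0.12 without control replicate 2. At least 96.8% of its transcript level was assigned to 1 transcript of 1154 residues. TYK2 lies on chromosome 19 (bases 10350529 to 10380676, minus strand). It was at 6.04 and 6.28 FPKM in sh-MFAP2 cells and at 5.55 and 5.93 FPKM in the controls. Both sh-MFAP2 values were above both controls, but by little: the log2 fold change was 0.09 (SE 0.10, adjusted p = 0.720), and 0.25 in sums of transcripts. The main TYK2 transcript, of 1187 residues, held 65.0% and 48.3% of the transcript level in sh-MFAP2 cells and 65.3% and 64.7% in the controls.

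STAT2, the STAT that binds IRF9, lies on chromosome 12 (bases 56341597 to 56360155, minus strand). It was at 3.30 and 5.22 FPKM in sh-MFAP2 cells and at 4.16 and 4.74 FPKM in the controls, so that the sh-MFAP2 libraries lay on either side of the controls. Its log2 fold change was -0.07 (SE 0.22, adjusted p = 0.897), and it turned to 0.19 without sh-MFAP2 replicate 1. Transcripts of 851 and 847 residues shared most of its level, and their shares overlapped between the groups. The form of 851 residues ranged from 42.6% to 51.7% in sh-MFAP2 cells and from 40.8% to 67.1% in the controls.

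STAT3 lies on chromosome 17 (bases 42313324 to 42388568, minus strand), and no annotated gene overlaps it. Its level was 10.8 and 11.6 FPKM in sh-MFAP2 cells and 15.8 and 17.3 FPKM in the controls. Both sh-MFAP2 values were well below both controls, and the replicates of a group were close, differing by 0.09 (sh-MFAP2) and 0.12 (control) on the log2 scale. The log2 fold change was -0.52 (SE 0.11, adjusted p = 0.331). It ranged from -0.58 to -0.47 when any library was left out. Relative to JAK1, the STAT3 gene level was 0.768 and 0.984 in sh-MFAP2 cells and 1.13 and 1.12 in the controls. In sums of transcripts this ratio overlapped between the groups.

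STAT3 is made in an alpha form with the full transactivation domain and in a shorter beta form. The beta form arises when the first 50 bases of an exon near the 3′ end are skipped, which shifts the reading frame. The stretch is shown because the transcripts counted below as alpha or beta differ by it. It lies at chr17:42316852-42316901 of GRCh38 on the minus strand, and the capitals mark the bases that the beta transcript (ENST00000585517) lacks, with 20 bases of the alpha transcript (ENST00000264657) on either side.
STAT3 alpha segment: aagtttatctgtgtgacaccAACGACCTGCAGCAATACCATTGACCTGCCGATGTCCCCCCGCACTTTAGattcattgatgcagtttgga

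Transcripts of 770 residues, the alpha form, held 72.0% and 51.8% of the STAT3 transcript level in sh-MFAP2 cells and 71.7% and 67.3% in the controls. An alpha form of 769 residues, which lacks 3 coding bases at chr17:42322282-42322284, held 14.4% and 22.1% in sh-MFAP2 cells and 15.2% and 18.3% in the controls. The beta transcript of 722 residues held 9.57% and 17.9% in sh-MFAP2 cells and 7.88% and 10.1% in the controls. All 3 shares overlapped between the groups, and sh-MFAP2 replicate 2 was the lowest library in the first and the highest in the others. In level, the transcript ENST00000264657 was at 13.9 and 9.85 FPKM in sh-MFAP2 cells and at 20.6 and 20.3 FPKM in the controls. Its log2 fold change was -0.75 (SE 0.23, adjusted p = 0.620 over all transcripts), and -0.69 with median-of-ratios scaling, where its unadjusted p was no longer under 0.05. The beta transcript was at 2.22 and 5.12 FPKM in sh-MFAP2 cells and at 2.67 and 3.87 FPKM in the controls, with a log2 fold change of 0.07 (SE 0.41, adjusted p = 0.969). The difference between both transcripts was not tested.

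IRF1, a factor induced by interferon gamma, lies on chromosome 5 (bases 132481609 to 132490798, minus strand). It had the lowest level of the 9 genes, 3.11 and 3.76 FPKM in sh-MFAP2 cells and 3.50 and 3.02 FPKM in the controls. The groups overlapped, and the log2 fold change was 0.06 (SE 0.14, adjusted p = 0.867). Its sign turned without sh-MFAP2 replicate 2 (-0.049), without control replicate 2 (-0.025) and in sums of transcripts (-0.025). The antisense gene C5orf56 was at 0.0692 to 0.173 FPKM. The main IRF1 transcript, of 325 residues, held 74.3% to 88.3% of the transcript level.

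IRF7, which drives the interferon alpha genes and is itself a target of ISGF3, lies on chromosome 11 (bases 612553 to 615999, minus strand), with no overlapping gene. Its level was 21.3 and 19.7 FPKM in sh-MFAP2 cells and 11.3 and 12.1 FPKM in the controls. The groups were far apart compared with their spread, and the ratio of the means was 1.75. The log2 fold change was 0.76 (SE 0.11), the largest in size of the 9 genes, with an adjusted p of 0.238 in limma. It ranged from 0.70 to 0.81 when any library was left out. Its partner in the induction of interferon genes, IRF3, was at 30.6 and 32.1 FPKM in sh-MFAP2 cells and at 33.5 and 29.7 FPKM in the controls. The level of IRF7 relative to IRF3 was 0.696 and 0.612 in sh-MFAP2 cells and 0.337 and 0.407 in the controls. Relative to STAT3, the IRF7 gene level was 1.98 and 1.70 in sh-MFAP2 cells and below 1 in the controls, at 0.713 and 0.702. In sums of transcripts this ratio was below 1 in sh-MFAP2 replicate 2 as well, without overlap of the groups.

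Both main forms of IRF7 were higher in sh-MFAP2 cells. Transcripts of 516 residues were at 12.8 and 11.6 FPKM in sh-MFAP2 cells and at 6.76 and 7.04 FPKM in the controls. Transcripts of 503 residues were at 11.1 and 10.4 FPKM in sh-MFAP2 cells and at 4.87 and 6.71 FPKM in the controls. Neither form overlapped between the groups. In the test over transcripts, the log2 fold change was 0.83 (SE 0.20, adjusted p = 0.518) for the main transcript of 516 residues (ENST00000330243) and 0.80 (SE 0.22, adjusted p = 0.592) for that of 503 residues (ENST00000397574). The genes whose centred log2 values lay nearest to those of IRF7 over the 4 libraries, among 9872 others, were HRASLS2 (Euclidean distance 0.041), SIK2 (0.064) and WBP2 (0.075). With 4 libraries in 2 groups, such nearness mostly reflects a like difference between the groups.

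IRF9, the DNA-binding subunit of ISGF3, lies on chromosome 14 (bases 24161053 to 24166565, plus strand). Its level was 12.6 and 14.02 FPKM in sh-MFAP2 cells and 8.70 and 8.42 FPKM in the controls, with no overlap and a ratio of the means of 1.56. The log2 fold change was 0.58 (SE 0.11, adjusted p = 0.320), and it ranged from 0.51 to 0.65 when any library was left out. A readthrough gene that overlaps IRF9 on the same strand (AL136295.5) was at 0.0719 to 0.138 FPKM. The IRF9 gene level relative to that of STAT2, another subunit of ISGF3, was 3.83 and 2.68 in sh-MFAP2 cells and 2.09 and 1.78 in the controls. The groups did not overlap. This is a ratio of RNA levels and does not give the make-up of the protein complex.

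Most of the summed transcript level of IRF9 was assigned to a transcript annotated as a retained intron. This transcript (ENST00000561415) keeps an intron of 479 bases, at chr14:24164135-24164613, and was at 22.9 and 23.9 FPKM in sh-MFAP2 cells and at 15.3 and 16.0 FPKM in the controls. These values exceeded the gene level of IRF9 in every library, and the transcript values do not add up to that level. The transcript held 71.6% to 82.6% of the summed transcript level, and its log2 fold change was 0.55 (SE 0.16, adjusted p = 0.601). All transcripts annotated as coding held 19.0% and 24.9% in sh-MFAP2 cells and 20.1% and 14.7% in the controls, which overlapped. The coding transcript of 393 residues was at 0.126 FPKM or less in every library, and that of 353 residues was at 2.72 and 5.70 FPKM in sh-MFAP2 cells and at 2.83 and 1.48 FPKM in the controls. How the authors' program divided reads between these transcripts was not tested.

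**Figure D2:**
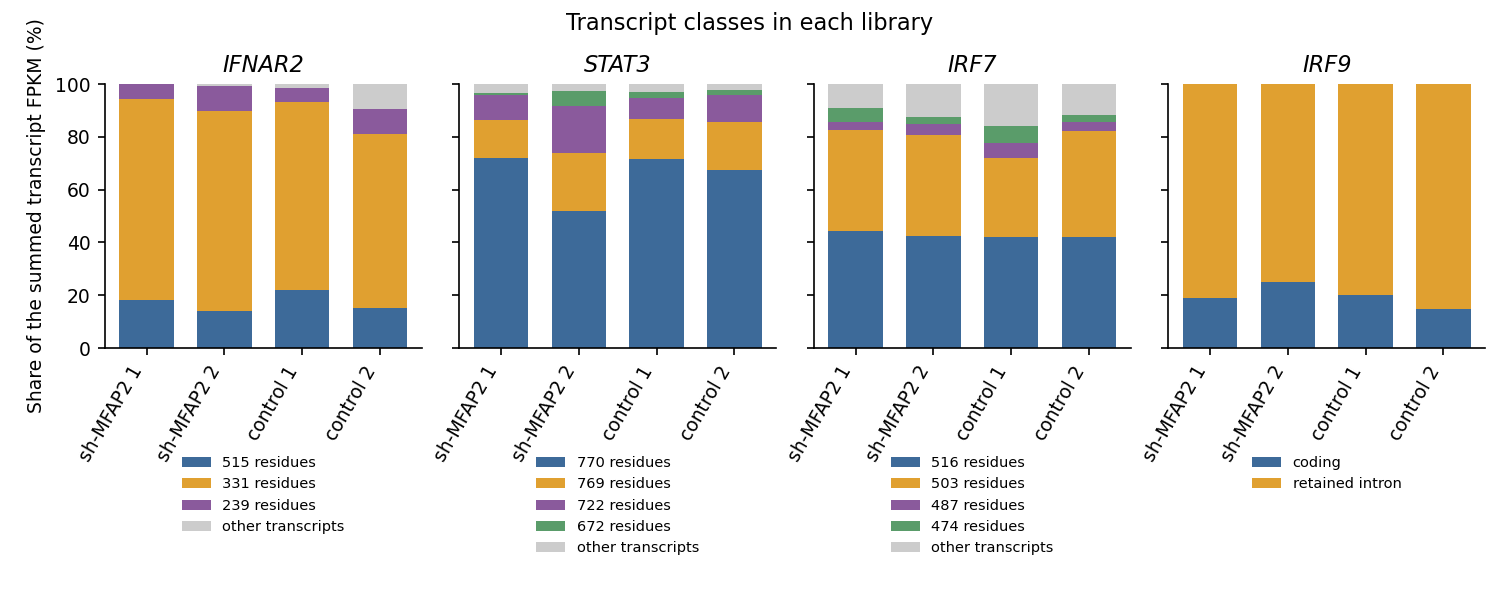
Share of the summed transcript FPKM of each gene (in percent, from 0 to 100) by class of transcript in each library. Classes are coding lengths in residues for IFNAR2, STAT3 and IRF7, with the remainder in grey, and the annotated type for IRF9. The short IFNAR2 form of 331 residues and the retained-intron class of IRF9 hold most of the level in every library, and the STAT3 form of 770 residues is at 51.8% in sh-MFAP2 replicate 2.

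Over the 95 listed transcripts of the 9 genes, 19 had a mean of at least 1 FPKM and were tested among 22312 transcripts. No transcript in the whole table was called in limma (0%), although 1704 had an unadjusted p under 0.05. Of the members' transcripts 3 were higher at that level (both main IRF7 transcripts and the retained-intron transcript of IRF9), against 3.22% of all transcripts tested. 1 was lower (the main STAT3 transcript), against 4.41%. Of the STAT3 transcripts tested, the other 3 overlapped between the groups.

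The promoters of the 9 genes were read in windows of 300 bases around the RefSeq start sites (GRCh38.p14), 250 bases before and 50 bases after. There were 10 such windows for 7 members, and none was at hand for IFNAR2 and IRF7. A GAS-like match, TTCNNNGAA on either strand, was found in the windows of IRF1 and IRF9. Such a match was present in 7.66% of all 35116 windows at hand. An ISRE-like match, which is GAAA, any 2 bases and GAAA on either strand, was found in 0 of the 10 windows, against 3.57% of all windows. The windows of IRF1 and IRF9 are shown so that the matches, in capitals, can be seen in their context. The IRF1 window lies at chr5:132490724-132491023 on the minus strand, with the match starting at position -124 relative to the start site. That of IRF9 lies at chr14:24161015-24161314 on the plus strand, with the match at -63.
IRF1 promoter: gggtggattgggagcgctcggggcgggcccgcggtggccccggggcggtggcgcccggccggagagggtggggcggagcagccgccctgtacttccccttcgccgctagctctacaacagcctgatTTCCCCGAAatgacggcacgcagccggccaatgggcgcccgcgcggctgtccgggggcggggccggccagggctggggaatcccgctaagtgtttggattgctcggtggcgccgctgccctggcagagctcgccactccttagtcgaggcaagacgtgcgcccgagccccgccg
IRF9 promoter: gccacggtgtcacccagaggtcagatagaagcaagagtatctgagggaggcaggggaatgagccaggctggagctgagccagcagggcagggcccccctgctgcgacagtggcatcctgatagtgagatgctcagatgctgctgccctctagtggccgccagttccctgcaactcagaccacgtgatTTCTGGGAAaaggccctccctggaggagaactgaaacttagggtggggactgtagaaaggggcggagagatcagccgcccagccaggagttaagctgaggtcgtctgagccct
The same short match thus lies before a gene whose groups overlapped (IRF1) and before a gene whose groups did not (IRF9). A match is a description of letters and not of binding.

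The other receptor chains, kinases, STATs and IRFs were 17 genes, of which 12 were tested. None was called in limma, against 0.273% of all genes tested. At an unadjusted p under 0.05, 1 was higher (STAT6), against 3.89% of all genes tested, and none was lower, against 8.41%. Their median log2 fold change was -0.01. Among receptor chains, IFNGR1, which binds interferon gamma, was at 16.5 and 47.1 FPKM in sh-MFAP2 cells and at 41.1 and 37.4 FPKM in the controls. As in IFNAR1, sh-MFAP2 replicate 1 was the lowest and sh-MFAP2 replicate 2 the highest of the 4 libraries. Its log2 fold change was -0.47 (SE 0.54, adjusted p = 0.717), and it turned to 0.26 without sh-MFAP2 replicate 1. IFNGR2, its partner chain, was at 34.3 and 37.0 FPKM against 31.2 and 29.7 FPKM in the controls (log2 fold change 0.22, SE 0.11, adjusted p = 0.477). IL10RB, shared by the receptors of IL-10 and interferon lambda, was at 9.26 to 10.6 FPKM in all libraries, and IFNLR1, the chain specific to interferon lambda, was at 0.0702 to 0.185 FPKM. Of the kinases, JAK2 was at 1.04 to 1.25 FPKM and JAK3, a kinase of blood cells, at 0.0427 FPKM or less.

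STAT6, the factor of IL-4 signalling, was at 9.23 and 9.81 FPKM in sh-MFAP2 cells and at 7.49 and 7.20 FPKM in the controls (log2 fold change 0.33, SE 0.10, adjusted p = 0.394). In sums of transcripts its log2 fold change was 0.14, and the unadjusted p was no longer under 0.05. STAT5B was at 6.82 and 7.05 FPKM against 7.60 and 7.86 FPKM in the controls. STAT5A stayed at or under 0.170 FPKM and STAT4 at or under 0.0173 FPKM. IRF2, which competes with IRF1 for its sites, was at 1.86 and 5.24 FPKM in sh-MFAP2 cells and at 1.80 and 2.44 FPKM in the controls, so that its log2 fold change of 0.44 (SE 0.44) rested on sh-MFAP2 replicate 2. Without that library it was -0.12. IRF5 was at 0.884 to 1.17 FPKM, IRF8 at 2.33 to 2.75 FPKM and IRF4 at or under 0.0147 FPKM, each with groups that overlapped.

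**Figure D3:**
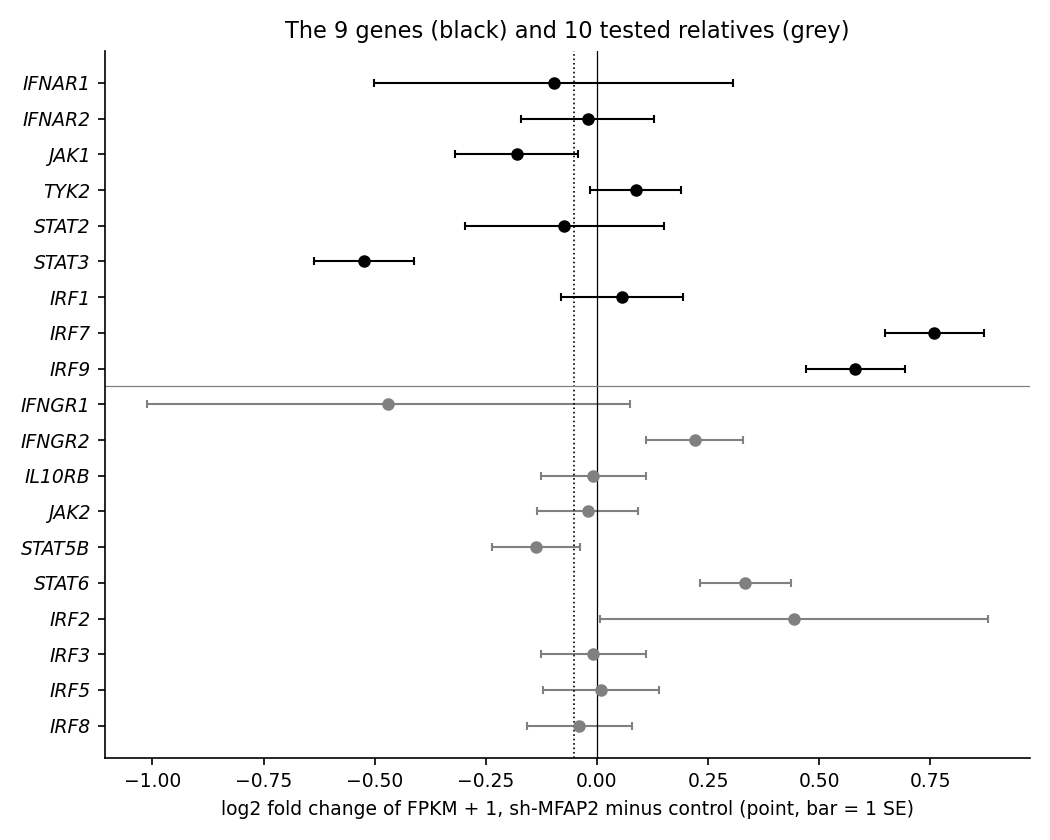
Difference of log2(FPKM + 1), sh-MFAP2 minus control, of the 9 genes in black and of 10 tested relatives in grey, as points with bars of 1 SE from limma. The dotted line is the median of all genes tested, -0.05. IRF7 (0.76) and IRF9 (0.58) lie farthest to the right and STAT3 (-0.52) farthest to the left, and the bars of IFNAR1, IFNGR1 and IRF2 are wide.

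Of 22 genes of interferons, the ligands at the head of the pathway, 14 were listed at 0 in every library and only IFNL1 and IFNB1 reached the mean of 1 FPKM needed for the test. IFNL1, a type III interferon, was at 5.83 and 6.28 FPKM in sh-MFAP2 cells and at 3.49 and 3.98 FPKM in the controls. Its groups did not overlap, and the log2 fold change was 0.58 (SE 0.12, adjusted p = 0.330). IFNB1, an early type I interferon of infected cells, was at 1.26 and 1.45 FPKM against 1.08 and 0.951 FPKM in the controls (log2 fold change 0.22, SE 0.11, adjusted p = 0.481, or 0.38 with a pseudocount of 0.1). Exact zeros in these tables can be failed estimates, so that a gene is only said to be listed at 0.

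Of 46 ISGF3 target genes, which carry ISREs and answer to type I interferon, 37 were tested and none was called. Both sh-MFAP2 libraries lay above both controls in 24 of them and below in 1, against 17.5% and 31.4% of all genes tested. At an unadjusted p under 0.05, 14 were higher and 1 was lower (3.89% and 8.41% of all genes tested), and the median log2 fold change was 0.42. ISG15, a ubiquitin-like modifier, was at 577 and 631 FPKM in sh-MFAP2 cells and at 277 and 247 FPKM in the controls, with a log2 fold change of 1.20 (SE 0.13, adjusted p = 0.137). OASL, a member of the oligoadenylate synthetase family, was at 26.5 and 26.8 FPKM against 13.9 and 13.9 FPKM, with a log2 fold change of 0.89 (SE 0.098, adjusted p = 0.145). IFIT5, an RNA-binding antiviral protein, was at 7.85 and 8.76 FPKM against 1.13 and 0.0531 FPKM, with a log2 fold change of 2.63 (SE 0.39, adjusted p = 0.238), or 4.28 with a pseudocount of 0.1. The list was chosen with the higher interferon genes of these libraries known, and its count is no independent evidence of a direction.

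Of 30 GAS and IRF1 target genes, 23 were tested and none was called. In 11 both sh-MFAP2 libraries lay above both controls (17.5% of all genes tested) and in 1 below (31.4%). At an unadjusted p under 0.05, 8 were higher (3.89% of all genes) and none was lower (8.41%). The median log2 fold change was 0.19. This list too was chosen with earlier results of these libraries known, and its counts are no independent evidence of a direction. PSMB10, a subunit of the immunoproteasome, was at 15.2 and 16.1 FPKM in sh-MFAP2 cells and at 10.1 and 9.51 FPKM in the controls (log2 fold change 0.63, SE 0.11, adjusted p = 0.283). APOL1 was at 4.87 and 3.82 FPKM against 2.09 and 2.11 FPKM (0.78 on the log2 scale, SE 0.14, adjusted p = 0.302). SERPING1, an inhibitor of complement C1, was at 1.79 and 1.53 FPKM against 0.864 and 0.616 FPKM (0.61 on the log2 scale, SE 0.13, adjusted p = 0.335, or 1.08 with a pseudocount of 0.1).

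Of 23 STAT3 target genes, 19 were tested and none was called. In 7 both sh-MFAP2 libraries lay above both controls, as in 17.5% of all genes tested, and in 5 below, as in 31.4%. The median log2 fold change was -0.03. Without sh-MFAP2 replicate 1 this median was 0.19. At an unadjusted p under 0.05, 3 were higher and 1 was lower, beside 3.89% and 8.41% of all genes tested. FGG and FGB, chains of fibrinogen and acute-phase proteins, were among the higher ones. FGG was at 39.8 and 36.8 FPKM in sh-MFAP2 cells and at 21.4 and 20.7 FPKM in the controls (log2 fold change 0.83, SE 0.11, adjusted p = 0.190). FGB was at 41.4 and 31.3 FPKM against 16.6 and 13.2 FPKM (1.23 on the log2 scale, SE 0.21, adjusted p = 0.283). HIF1A, the hypoxia-response factor, was at 27.9 and 35.3 FPKM against 51.8 and 55.5 FPKM (-0.75 on the log2 scale, SE 0.16, adjusted p = 0.330).

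Of 11 ligands and receptors that act through gp130, 6 were tested, none was called, and none had an unadjusted p under 0.05. Of all genes tested, 3.89% were higher and 8.41% lower at that level. The median log2 fold change was -0.05. IL6ST, which encodes gp130 itself, was at 5.71 and 11.02 FPKM in sh-MFAP2 cells and at 10.8 and 11.2 FPKM in the controls, so that only sh-MFAP2 replicate 1 was clearly lower. Its log2 fold change was -0.42 (SE 0.32, adjusted p = 0.598), and 0.00069 without that library. OSMR, the oncostatin M receptor, was at 11.3 and 5 FPKM against 12.8 and 8.89 FPKM (-0.45 on the log2 scale, SE 0.43, adjusted p = 0.661), and its log2 fold change was 0.070 without sh-MFAP2 replicate 2. LIF was at 6.18 and 6.13 FPKM against 5.49 and 5.85 FPKM (0.10 on the log2 scale, SE 0.10, adjusted p = 0.671).

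Of 17 negative regulators, which are SOCS proteins, PIAS proteins and phosphatases, 13 were tested and none was called. In 5 both sh-MFAP2 libraries lay below both controls, where 31.4% of all genes tested did, and in 1 above (17.5% of all genes). The median log2 fold change was -0.12. At an unadjusted p under 0.05, 3 were lower (8.41% of all genes tested) and 1 was higher (3.89%). PIAS3, an inhibitor of DNA binding by STAT3, was at 5.69 and 5.78 FPKM in sh-MFAP2 cells and at 9.33 and 9.57 FPKM in the controls (log2 fold change -0.63, SE 0.098, adjusted p = 0.254). PTPN1, a phosphatase of JAK2 and TYK2, was at 14.3 and 8.67 FPKM against 22.5 and 24.1 FPKM (-0.999 on the log2 scale, SE 0.26, adjusted p = 0.368). PTPN11, the phosphatase SHP2, which also carries growth factor signals, was the higher member, at 28.3 and 25.7 FPKM against 12.3 and 15.8 FPKM (0.91 on the log2 scale, SE 0.16, adjusted p = 0.302). PIAS3, PTPN1 and another regulator were thus lower at that unadjusted level, and so was STAT3. Whether these differences are related was not tested.

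**Figure D4:**
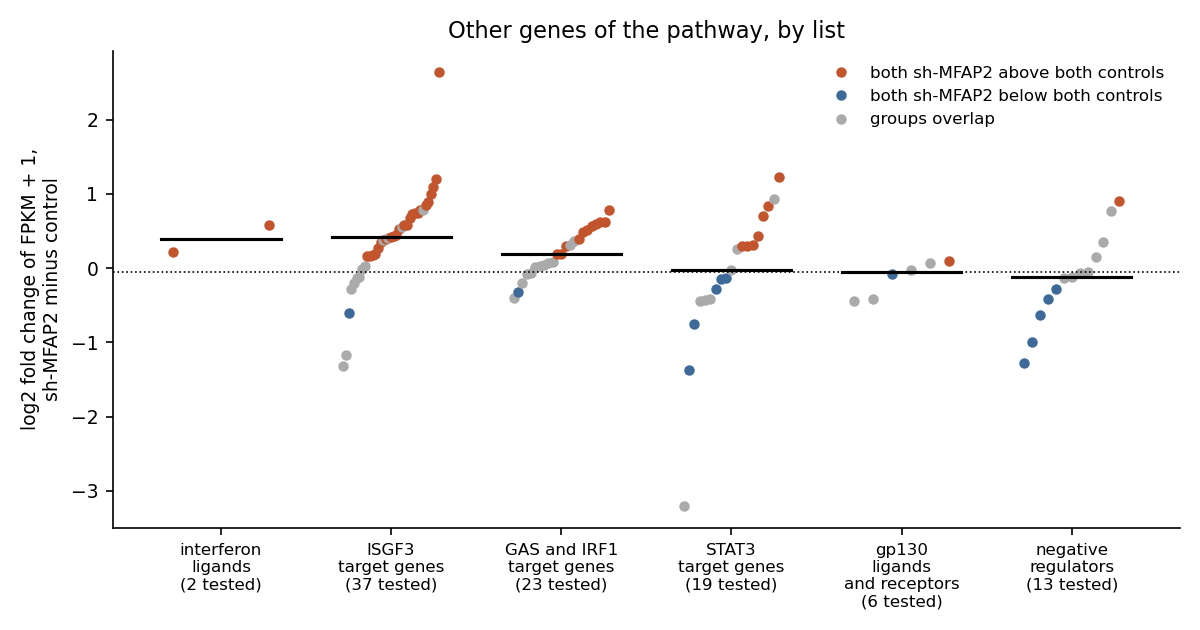
Difference of log2(FPKM + 1), sh-MFAP2 minus control, of each tested gene in 6 lists of the pathway, sorted within the list, with list medians as black bars and the median of all genes tested (-0.05) as a dotted line. Red marks genes with both sh-MFAP2 libraries above both controls, blue genes with both below, and grey genes whose groups overlap. ISGF3 target genes lie mostly above the dotted line (24 of 37 in red), and STAT3 target genes lie on either side of it.

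Marker genes of other cells were measured beside these results. Of 8 leukocyte markers, 7 were under 1 FPKM in every library and CD68, a lysosomal protein of macrophages that other cells also make, was above it. The list summed to 3.95 and 3.78 FPKM in sh-MFAP2 cells and to 8.39 and 7.59 FPKM in the controls. Of 6 fibroblast markers only COL1A1 was above 1 FPKM, and that list summed to 2.34 and 2.12 FPKM in sh-MFAP2 cells and to 4.39 and 4.96 FPKM in the controls. Both sums, nearly all CD68 and COL1A1, were lower in sh-MFAP2 cells. CSF1R, another leukocyte marker, was higher there, at 0.561 and 0.420 FPKM against 0.176 and 0.214 FPKM. PTPRC, a general marker of leukocytes, and CD3E, a marker of T cells, were at 0.0201 FPKM or less in every library. The part of CD68 and COL1A1 in these results was not tested.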

How the data were processed

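RNA was sequenced from AGS cells with shRNA against MFAP2 (2 libraries) or control shRNA (2 libraries), and libraries were grouped by their labels. The authors deposited 1 table of genes and 1 of transcripts, scaled by them per length and per library before deposit, and the deposited values were taken as FPKM although the headers name no unit. The depth was inferred from steps between low values (62.1% to 62.7% of low values within 0.05 of a whole step, in features with 1 transcript longer than 1000 bases). Whole reads were thus not recovered, and no count test was used. The submitters' processing notes name hg38. The aligner, the program, the annotation and the use of strand are not given in the sources used here.

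Genes that averaged 1 FPKM or more were tested on log2(FPKM + 1) with limma 3.58.1 (lmFit, eBayes with variance trend) in R 4.3.3, with Benjamini-Hochberg adjustment over all genes tested. Calls needed p under 0.01 and adjusted p under 0.05. Transcripts were tested alike. A fold change on this scale understates the change of low genes. The fit was tested on simulated data. Transcript types, coding lengths and coordinates came from GENCODE 29 on GRCh38, in which 43715 of 47251 gene identifiers were found. Python 3.11.15 with pandas 2.3.3, numpy 2.4.6 and matplotlib 3.10.9 was used for tables and figures.

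The 9 genes, the lists and the tests were chosen with earlier results of these data known. Named genes were the 9 members, all other receptor chains, JAKs, STATs and IRFs of the lists, MFAP2, the 3 genes nearest to the member with the smallest p, and the 3 genes with the smallest p (and any called) in each other list. The results of 2 genes under this rule are not reported here. Transcripts were described where they held at least 10% of a gene in a library or, for coding classes, where they bore on the main forms. Markers, overlapping genes and IRF9 transcripts outside this rule were added after their values were seen. Alternatives were no filter, a minimum mean of 5 FPKM, 0.1 as the pseudocount, quantile normalization, median-of-ratios scaling, no variance trend, a block for the replicate number, sums of transcripts, other thresholds and omission of each library in turn.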

Additional observations from a re-analysis of the deposited data

How the results depend on the processing

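No member was called under any alternative except an unadjusted p under 0.05 alone, which called 3. The number of genes called was 6 without the filter, 9 at a minimum mean of 5 FPKM, 0 with a block for the replicate number and 0 in each fit without a library. It was 46 at an adjusted p under 0.1, and 1214 had an unadjusted p under 0.05. The labels do not say whether the replicate numbers pair the libraries. The deviations of same-numbered libraries from their group means had a correlation of -0.0572 across 9873 genes, which are not independent replicates. With 2 libraries in a group this value cannot settle whether they were paired. The number of transcripts called was 1 at a minimum mean of 5 FPKM and 5 with a pseudocount of 0.1. With a library left out, 3 to 6 members lay higher in sh-MFAP2 cells without overlap and 2 to 4 lower. Of these, 6 were higher without sh-MFAP2 replicate 1, and 4 were lower without sh-MFAP2 replicate 2, and 2 lower without each of the others, since a lone library overlaps less. IRF7, IRF9, STAT3, JAK1 and TYK2 kept their direction under every alternative, with an adjusted p in limma from 0.180 to 0.727 for IRF7, from 0.186 to 0.915 for IRF9 and from 0.191 to 0.915 for STAT3.

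The log2 fold change of 13 genes turned under an alternative, among them IFNGR1, OSMR, IRF2 and IL6ST when a library was left out. With quantile normalization it was 0.066 for IFNAR2, 0.014 for STAT2, 0.049 for IL10RB, 0.026 for JAK2, 0.0063 for IRF3 and 0.028 for IRF8. With median of ratios it was 0.020 for IFNAR2, 0.039 for IL10RB, 0.0075 for JAK2 and 0.042 for IRF3. With sums of transcripts it was -0.025 for IRF1 and 0.090 for JAK2. Over the fits without a library, it ranged from -0.64 to 0.44 for IFNAR1, -0.14 to 0.097 for IFNAR2, -0.34 to 0.19 for STAT2, -0.049 to 0.16 for IRF1, -1.20 to 0.26 for IFNGR1, -0.098 to 0.082 for IL10RB, -0.090 to 0.048 for JAK2, -0.12 to 1.01 for IRF2, -0.091 to 0.074 for IRF3, -0.093 to 0.11 for IRF5, -0.11 to 0.029 for IRF8, -0.84 to 0.00069 for IL6ST and -0.96 to 0.070 for OSMR. Among transcripts it ranged from -0.64 to 0.45 for ENST00000270139 (IFNAR1), -0.46 to 0.074 for ENST00000342136 and -0.26 to 0.26 for ENST00000382264 (IFNAR2), -0.0076 to 0.11 for ENST00000525621 (TYK2), -0.54 to 0.14 for ENST00000314128 and -0.21 to 0.71 for ENST00000557235 (STAT2), -0.70 to 0.061 for ENST00000404395, -0.39 to 0.53 for ENST00000585517 and -0.58 to 0.11 for ENST00000588969 (STAT3), and -0.0027 to 0.22 for ENST00000245414 (IRF1).

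List medians moved as follows, and the cause was not tested. With no filter the median was 0.0080 for other STATs, 0.13 for ligands, -0.018 for the gp130 list, 0.38 for ISGF3 targets, 0.078 for GAS and IRF1 targets and -0.0019 for all genes. At a minimum mean of 5 FPKM it was -0.42 for the gp130 list, 0.13 for GAS and IRF1 targets and -0.084 for STAT3 targets. With a pseudocount of 0.1 it was 0.53 for ligands, -0.14 for the gp130 list, 0.58 for ISGF3 targets and 0.30 for GAS and IRF1 targets. With quantile normalization it was 0.47 for ligands, 0.026 for the gp130 list, 0.48 for ISGF3 targets, 0.26 for GAS and IRF1 targets and -8.7e-05 for all genes. With median of ratios it was 0.46 for ISGF3 targets, 0.019 for STAT3 targets and -0.011 for all genes. With sums of transcripts it was 0.090 for other JAKs, 0.050 for other STATs, -0.15 for the gp130 list and 0.43 for GAS and IRF1 targets. Over the fits without a library it ranged from -0.062 to 0.16 for members, -0.098 to 0.26 for other receptors, -0.12 to 0.29 for other STATs, -0.093 to 0.029 for other IRFs, -0.24 to -0.10 for negative regulators, -0.091 to 0.015 for the gp130 list, 0.33 to 0.46 for ISGF3 targets, 0.12 to 0.31 for GAS and IRF1 targets and -0.093 to 0.19 for STAT3 targets. MFAP2, at the limit of detection, and genes listed at 0 cannot be compared here.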

Other observations

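Genes named in this paragraph were chosen after their values were seen. Of the other type III interferon genes, which failed the mean of 1 FPKM, IFNL2 and IFNL3 lay on the same side as IFNL1. IFNL4 was listed at 0 except in sh-MFAP2 replicate 2 (0.045 FPKM), so that its groups overlapped. IFNL2 was at 1.12 and 0.919 FPKM in sh-MFAP2 cells and at 0.470 and 0.321 FPKM in the controls, and IFNL3 was at 1.18 and 0.918 FPKM against 0.447 and 0.537 FPKM. IFNL2 and IFNL3 are nearly identical copies, so that the division of reads between them is uncertain. IFNE was listed at 0 for sh-MFAP2 cells and was at 0.619 and 0.579 FPKM in the controls.

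Genes in this paragraph were likewise chosen after their values were seen. LIFR was at 0.794 FPKM in sh-MFAP2 replicate 1, at 4.55 FPKM in sh-MFAP2 replicate 2 and at 2.01 and 2.44 FPKM in the controls. The sh-MFAP2 libraries had the same order in IFNAR1, IFNGR1 and IL6ST. OSMR had the opposite order, and IFNGR2 and IL10RB were not lowest in sh-MFAP2 replicate 1. Some ISGF3 target genes switched between libraries of a group: IFIT1 was at 58.9 and 3.43 FPKM in sh-MFAP2 cells and at 35.9 and 3.30 FPKM in the controls, and IFIT3 was at 0.604 and 35.02 FPKM against 9.52 and 0.847 FPKM. Among STAT3 target genes, JUNB was listed at 0 in 3 libraries and was at 84.4 FPKM in control replicate 1. The cause of these differences between replicates was not tested.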
